A study of Mus musculus with 2 samples.

Results

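The neutrophil-attracting CXC chemokines and their close relatives were followed in mouse mammary basal cells grown in 3D culture. The group was chosen by gene name and holds 9 of the 49492 genes in the table of reads, namely Cxcl1, Cxcl2, Cxcl3, Cxcl5, Cxcl15, Cxcl12, Cxcl14, Cxcl16 and Cxcl17, and all 9 passed the filter on low counts. The basal cells came from the mammary glands of adult female WT mice, where they were sorted by FACS as cells that carry CD24, are high for CD29 and lack the lineage markers of blood and endothelial cells. They were grown in a drop of matrix gel for 11 to 14 days. In the group named ctrl they received no treatment and grew alone, and in the group named M2 they were co-cultured with bone marrow macrophages that IL-4 and IL-13 had turned towards an M2-like state. According to the study's methods, these macrophages sat in an insert above the gel, behind a porous membrane, and were renewed during the culture. The colonies and organoids that formed were harvested and their RNA was sequenced, with 1 library per group, so how much these genes vary from culture to culture is not known.

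CXC chemokines are small secreted proteins that steer white blood cells. Most of those that carry the amino acids Glu-Leu-Arg (ELR) just before the first pair of cysteines bind Cxcr2, and in some species Cxcr1, on neutrophils. They draw these cells out of the blood towards infected or injured epithelium. Epithelial cells make them after signals such as interleukin-1, TNF or bacterial products, largely through the NF-kB transcription factors, and their short-lived mRNAs allow the response to be ended quickly. The CXC chemokines without ELR have other targets: Cxcl12 binds Cxcr4 and Ackr3 and guides lymphocytes and stem cells, Cxcl16 is made as a membrane protein and binds Cxcr6 on T cells, Cxcl14 is made by many resting epithelia, and Cxcl17 is a product of mucosal surfaces.

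The label of the group was first checked against the coding sequences of the GENCODE M21 transcripts (GRCm38). The lines that follow give, for each gene, the 36 bases around the first Cys-X-Cys, since these bases separate the ELR chemokines from the others. The capitals mark the codons of the 3 amino acids before the first cysteine.
Cxcl1: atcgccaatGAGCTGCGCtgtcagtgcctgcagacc
Cxcl2: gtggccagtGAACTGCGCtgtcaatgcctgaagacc
Cxcl3: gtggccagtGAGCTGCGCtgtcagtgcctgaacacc
Cxcl5: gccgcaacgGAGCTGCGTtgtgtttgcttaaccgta
Cxcl15: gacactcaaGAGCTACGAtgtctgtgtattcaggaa
Cxcl12: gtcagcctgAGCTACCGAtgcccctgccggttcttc
Cxcl14: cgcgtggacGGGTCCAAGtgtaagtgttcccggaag
Cxcl16: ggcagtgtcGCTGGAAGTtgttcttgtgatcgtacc
Cxcl17: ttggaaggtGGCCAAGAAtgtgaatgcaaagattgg
The codons spelled ELR in 5 of the 9 genes, Cxcl1, Cxcl2, Cxcl3, Cxcl5 and Cxcl15, and in none of the other 4. The 5 are called ELR chemokines in what follows, and only to them does the name neutrophil-attracting apply by sequence.

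The ctrl library held 26912610 reads in genes and the M2 library 29413844, with 4.83% and 4.11% of them in mitochondrial genes. Among the 19233 genes with at least 10 reads over both libraries, a gene was called higher or lower in M2 when an exact binomial test on its reads, scaled by TMM, gave a Benjamini-Hochberg adjusted p under 0.05 and the difference was at least 2-fold. By this rule 8.16% of the genes tested were higher and 6.55% were lower, and the log2 fold differences of the genes tested had a median of -0.0032. Such a p-value compares these libraries and not the conditions, and the intervals given are 95% intervals that cover counting error only. Levels are given in CPM, reads of a gene scaled to a fixed total of reads in genes, and, between genes, in RPKM, which also divides by the listed gene length in kb.

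All 5 ELR chemokines were higher in the M2 library, 1 of the other 4 members was lower (Cxcl14), and the remaining 3 (Cxcl12, Cxcl16 and Cxcl17) differed by less than 2-fold. The 5 of 9 called higher stand beside the 8.16% of all genes, and the 1 of 9 called lower beside the 6.55%. The members were chosen with earlier results of these data known, so this comparison is description only. Together the ELR chemokines had 7086 reads (263 CPM) in ctrl and 50752 reads (1725 CPM) in M2, which is 2.77 on the log2 scale (interval 2.74 to 2.81). The 4 members without ELR moved the other way as a sum, from 28852 reads (1072 CPM) to 7914 reads (269 CPM), which is -1.94 on the log2 scale (interval -1.97 to -1.90). Over all 9 members the sum was 35938 reads in ctrl and 58666 in M2, 1.56-fold higher. In bulk RNA, fewer cells that express a gene and less of its RNA per cell cannot be told apart, and this holds for every value given here.

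**Figure D1:**
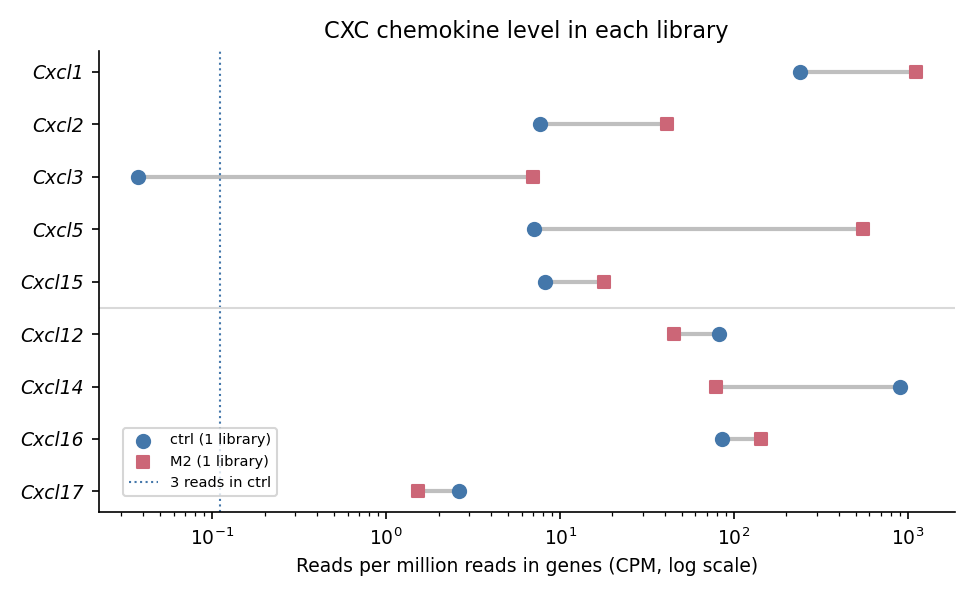
Level of each CXC chemokine in CPM (log scale) in the ctrl library (circles) and the M2 library (squares), 1 library each, with the ELR chemokines above the grey line and the dotted line at the level of 3 reads in ctrl. The squares lie to the right of the circles for all 5 ELR chemokines and for Cxcl16, and to the left for Cxcl12, Cxcl14 and Cxcl17.

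Cxcl1 (ENSMUSG00000029380, chr5:90891241-90893115, plus strand), a major neutrophil chemokine of many mouse epithelia, was the most abundant ELR chemokine per length in both libraries. It had 6471 reads (240 CPM) in ctrl and 32661 reads (1110 CPM) in M2. Cxcl1 RNA was thus plentiful already in cells grown alone. The log2 fold difference was 2.27 (interval 2.23 to 2.30), or 4.81-fold. Per length, Cxcl1 stood at place 373 among all genes in ctrl (128 RPKM) and at place 59 in M2 (592 RPKM).

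Cxcl5 (ENSMUSG00000029371, chr5:90759360-90761624, plus strand), an ELR chemokine typical of epithelial cells, was lowly expressed in ctrl and was second only to Cxcl1 among the members in M2, per length. It had 190 reads (7.06 CPM) in ctrl and 16152 reads (549 CPM) in M2. The log2 fold difference of 6.33 (interval 6.13 to 6.55), or 80.6-fold, was the 15th highest among the 19233 genes tested. Its level per length was 3.79 RPKM in ctrl, at place 9659 among all genes, and 295 RPKM in M2, at place 144.

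Cxcl3 (ENSMUSG00000029379, chr5:90786103-90789600, plus strand), a close copy of Cxcl2, was near the limit of detection in ctrl. It had 1 read (0.0372 CPM) in ctrl, under the limit of 3 reads (0.111 CPM) that a count of 0 allows, and 205 reads (6.97 CPM) in M2. Without a pseudocount the log2 ratio was 7.61, with a wide interval of 5.12 to 12.92 because of that single read. The gene was called higher, but the size of the difference is poorly known. The interval covers counting error only, and the split of reads between Cxcl3 and Cxcl2 is uncertain.

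Cxcl2 (ENSMUSG00000058427, chr5:90903871-90905938, plus strand), which in many tissues is made by macrophages as well as epithelium, was present at a low level in ctrl. It had 205 reads (7.62 CPM) in ctrl and 1209 reads (41.1 CPM) in M2. The log2 fold difference was 2.49 (interval 2.28 to 2.71), or 5.60-fold. This was close to the difference of Cxcl1, at a lower level per length in M2 (19.9 RPKM for Cxcl2 and 592 RPKM for Cxcl1).

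Cxcl15 (ENSMUSG00000029375, chr5:90794534-90803067, plus strand), an ELR chemokine of the mouse best known from the lung, showed the smallest difference of the 5. It had 219 reads (8.14 CPM) in ctrl and 525 reads (17.8 CPM) in M2. Its log2 fold difference was 1.19 (interval 0.96 to 1.43), or 2.28-fold. The lower end of the interval lies just under 2-fold.

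Cxcl14 (ENSMUSG00000021508, chr13:56288647-56296551, minus strand) was the CXC chemokine with the most reads in cells grown alone, and it was lower in M2. It had 24280 reads (902 CPM) in ctrl and 2323 reads (79.0 CPM) in M2. Its log2 fold difference was -3.45 (interval -3.52 to -3.39), or 11.0-fold lower. Among all genes tested it had the 160th lowest log2 fold difference. Per length it stood at place 69 among all genes in ctrl (495 RPKM) and at place 1246 in M2 (43.3 RPKM).

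Of the 3 members not called, Cxcl12 (ENSMUSG00000061353, chr6:117168535-117181367, plus strand) had 2212 reads (82.2 CPM) in ctrl and 1328 reads (45.2 CPM) in M2. Its log2 fold difference was -0.80 (interval -0.90 to -0.71), so the difference exceeded counting error and did not reach 2-fold. Cxcl16 (ENSMUSG00000018920, chr11:70453983-70459984, minus strand) had 2289 reads (85.1 CPM) in ctrl and 4218 reads (143 CPM) in M2, with a log2 fold difference of 0.81 (interval 0.74 to 0.89). Cxcl17 (ENSMUSG00000060188, chr7:25400053-25412886, minus strand) was lowly expressed, with 71 reads (2.64 CPM) in ctrl and 45 reads (1.53 CPM) in M2, and its log2 fold difference of -0.72 had an interval of -1.30 to -0.17. The interval of Cxcl17 thus reached past a 2-fold difference, and those of Cxcl12 and Cxcl16 did not.

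**Figure D2:**
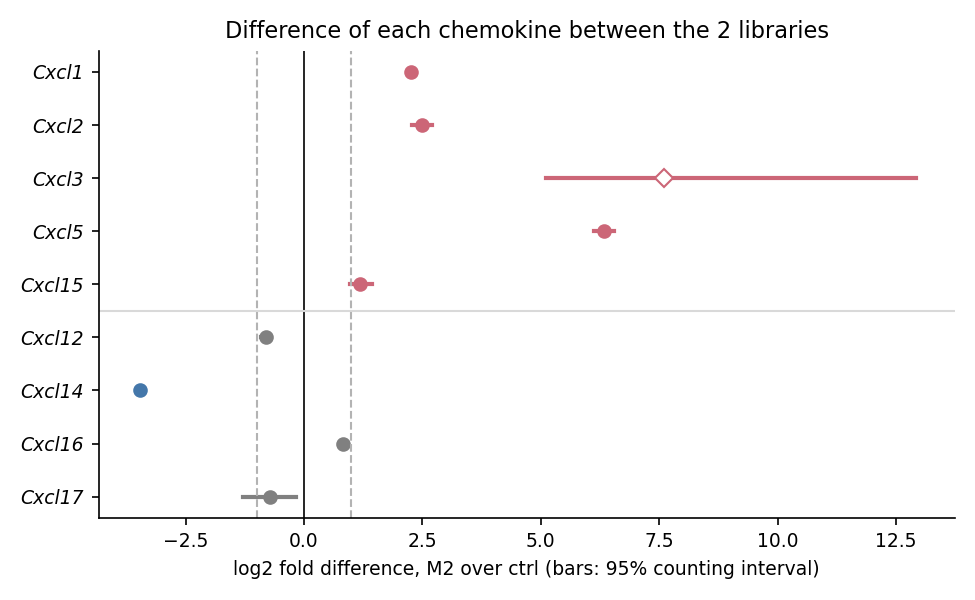
Log2 fold difference of each CXC chemokine, M2 over ctrl, with 95% counting intervals as bars, red where called higher, blue where called lower and grey where not called, and dashed lines at a 2-fold difference. The ELR chemokines run from 1.19 for Cxcl15 to 6.33 for Cxcl5 and an open diamond for Cxcl3, which had 1 read in ctrl and is drawn without a pseudocount, while Cxcl14 lies at -3.45.

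How far these calls depend on variation between cultures could be examined only with an assumed value. With the exactTest function of edgeR and an assumed biological coefficient of variation of 0.2, 5.01% of genes were higher and 3.59% lower, and among the members 4 were higher (Cxcl1, Cxcl2, Cxcl3 and Cxcl5) and 1 lower (Cxcl14). Cxcl15 then had an adjusted p of 0.0622. With an assumed coefficient of 0.4, 0.910% of genes were higher and 0.676% lower, and only Cxcl3, Cxcl5 (both higher) and Cxcl14 (lower, adjusted p = 0.0158) remained called among the members. Cxcl1 and Cxcl2 had an adjusted p of 0.279 and 0.184 in that setting. At a 4-fold threshold in the binomial test, at which 3.20% of genes were higher and 2.57% lower, 4 members were higher and 1 was lower, and Cxcl15 was the member lost.

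The mixture of ELR chemokine transcripts differed between the libraries. Cxcl1 made up 91.3% of ELR reads in ctrl (exact binomial interval 90.6 to 92.0) and 64.4% in M2 (63.9 to 64.8). Cxcl5 made up 2.68% in ctrl (2.32 to 3.08) and 31.8% in M2 (31.4 to 32.2). The share of Cxcl2 was 2.89% in ctrl and 2.38% in M2, that of Cxcl15 was 3.09% and 1.03%, and that of Cxcl3 was 0.0141% and 0.404%. The ELR reads of cells grown alone were thus nearly all Cxcl1, and those of the co-culture were mainly Cxcl1 and Cxcl5, as shares of reads that are not scaled by length.

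Because Cxcl1 and Cxcl5 carry most of the sum, it was also formed without each of them. Without Cxcl1 the ELR sum was 615 reads in ctrl and 18091 in M2, or 4.81 on the log2 scale, and without Cxcl5 it was 6896 and 34600 reads, or 2.26. Among all 9 members Cxcl14 took 67.6% of the reads in ctrl and 3.96% in M2, Cxcl1 18.0% and 55.7%, and Cxcl5 0.529% and 27.5%. Without Cxcl14 the members that lack ELR summed to 4572 reads (170 CPM) in ctrl and 5591 reads (190 CPM) in M2, or 0.22 on the log2 scale (interval 0.16 to 0.28). The lower sum of the members without ELR in M2 was therefore that of Cxcl14.

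**Figure D3:**
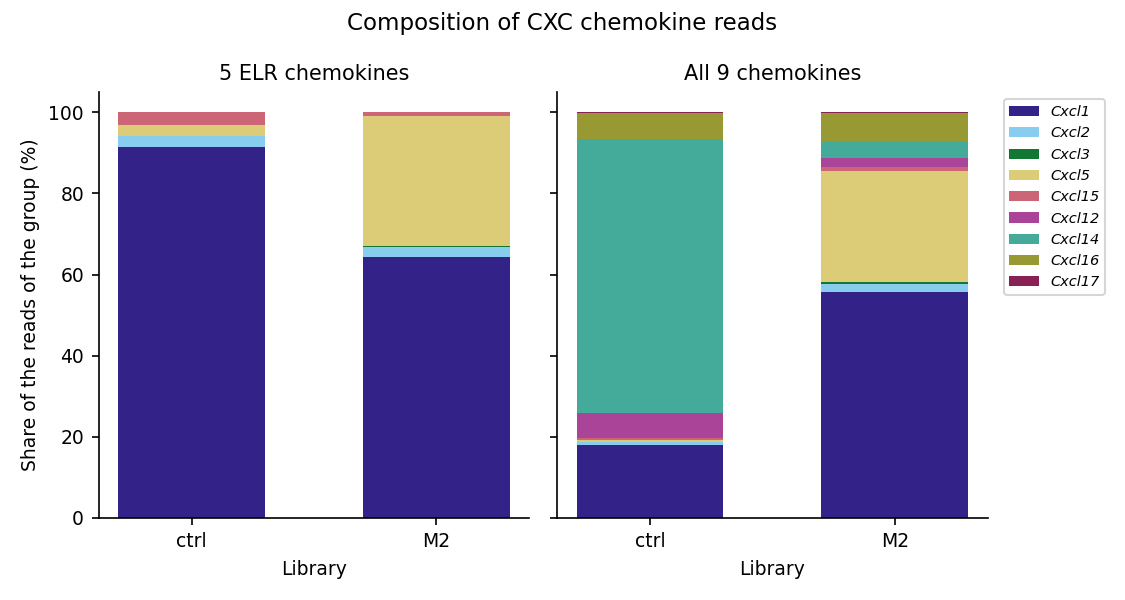
Share of each gene in percent of the reads of the 5 ELR chemokines (left) and of all 9 CXC chemokines (right), 1 bar per library. Among ELR reads Cxcl5 takes 2.68% in ctrl and 31.8% in M2, and among all members Cxcl14 takes 67.6% in ctrl and 3.96% in M2.

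The 5 ELR chemokines were also compared with each other, which does not depend on how the libraries are scaled. A two-sided Fisher's exact test was run for each of the 10 pairs, with p-values adjusted over the 10. In 9 pairs the ratio of the reads of both genes differed between the libraries. Cxcl1 had 34.1 reads for each read of Cxcl5 in ctrl and 2.02 in M2, and the log2 fold difference of Cxcl1 minus that of Cxcl5 was -4.07. Cxcl5 had 0.868 reads for each read of Cxcl15 in ctrl and 30.8 in M2, and its log2 fold difference minus that of Cxcl15 was 5.14. Cxcl1 and Cxcl2 differed least among the 9 pairs, with 31.6 reads of Cxcl1 for each read of Cxcl2 in ctrl and 27.0 in M2 (exact adjusted p = 0.0496). For Cxcl3 and Cxcl5 no difference was detectable at this depth (exact adjusted p = 0.735), given the 1 read of Cxcl3 in ctrl. By the size of the difference the 5 thus fell into Cxcl5 and Cxcl3 at the top, Cxcl2 and Cxcl1 next and Cxcl15 last.

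Per length, the order of the members in ctrl was Cxcl14 (495 RPKM), Cxcl1 (128), Cxcl16 (28.1), Cxcl12 (10.1), Cxcl15 (3.83), Cxcl5 (3.79), Cxcl2 (3.68), Cxcl17 (3.47) and Cxcl3 (0.0106). From Cxcl15 to Cxcl17 the neighbours in that order had overlapping counting intervals. In M2 the order was Cxcl1 (592 RPKM), Cxcl5 (295), Cxcl16 (47.5), Cxcl14 (43.3), Cxcl2 (19.9), Cxcl15 (8.39), Cxcl12 (5.52), Cxcl17 (2.01) and Cxcl3 (1.99), and only the last pair overlapped. The listed length exceeds that of the coding transcript for Cxcl3 (3498 and 1016 bases), Cxcl2 (2068 and 1109), Cxcl1 (1875 and 953) and, to a lesser extent, Cxcl12, Cxcl5 and Cxcl16, which lowers their RPKM. With the length of the coding transcript, a choice made after the data had been seen, the middle of the order in ctrl became Cxcl2 (6.87 RPKM), Cxcl5 (4.48) and Cxcl15 (3.83). In M2, Cxcl3 then had 6.86 RPKM and stood above Cxcl17, while Cxcl1 (1165 RPKM) and Cxcl5 (349 RPKM) kept their places at the top.

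Reads of some members may be shared with other genes. The coding sequences of Cxcl2 and Cxcl3 were 89.7% identical, and their transcripts shared a stretch of 110 bases without a mismatch, so the split of reads between these genes is uncertain. Cxcl1 was 78.8% identical to Cxcl2 and 75.7% to Cxcl3, with a longest shared stretch of 23 bases in each case, and the pairs with Cxcl5 or Cxcl15 ranged from 61.4% to 71.2% with stretches of 11 to 14 bases. Cxcl16 overlaps Zmynd15 on the opposite strand, a gene with 416 reads in ctrl and 792 in M2, and Cxcl17 lies within 4732471J01Rik on the opposite strand, with 94 and 129 reads. The use of strand in counting is not given in the sources used here, so the reads of Cxcl16 and Cxcl17 may include some of those genes.

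The 5 ELR chemokines share their place in the genome, which the choice of members did not use. They lie on the plus strand of chromosome 5 within 146.6 kb, from Cxcl5 to Cxcl2, whereas Cxcl12, Cxcl14, Cxcl16 and Cxcl17 lie on 4 other chromosomes. Between Cxcl5 and Cxcl2 the table lists 11 genes, of which 6 had enough reads to be tested. All 6 were higher in M2, beside 8.16% of all genes, but 5 of them were the ELR chemokines already given. The only further gene was Gm43085, which had 16 reads in ctrl and 40 in M2 (log2 fold difference 1.20, interval 0.38 to 2.19). Gm43085 starts at base 90803261 on the plus strand, shortly after the listed end of Cxcl15 at 90803067. Whether its reads stem from Cxcl15 transcripts was not tested. Ppbp, an ELR chemokine of platelets in the same interval, had 5 reads in M2 and 0 in ctrl, and Pf4, a platelet chemokine without ELR, had 0 reads in both.

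The genes on both sides of the ELR cluster, up to 500 kb away, were called in both directions. Of 21 listed there, 10 were tested, of which 2 were higher, 3 lower and 5 not called. Over all genes tested, 8.16% were higher and 6.55% lower. Ereg, which encodes an EGF-like growth factor, was higher with 139 reads in ctrl and 427 in M2 (log2 fold difference 1.54), as was Gm42532, which overlaps it on the other strand, with 18 and 51 reads (1.38). Areg and Btc, which also encode EGF-like growth factors, were lower, with 1137 and 315 reads (-1.92) and with 371 and 160 reads (-1.28), and so was Gm19619 with 23 and 3 reads. The genes not called were Ankrd17 (0.27), Rassf6 (-0.03), Mthfd2l (-0.35), Epgn (0.47) and Gm9958 (0.43), each given as its log2 fold difference.

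**Figure D4:**
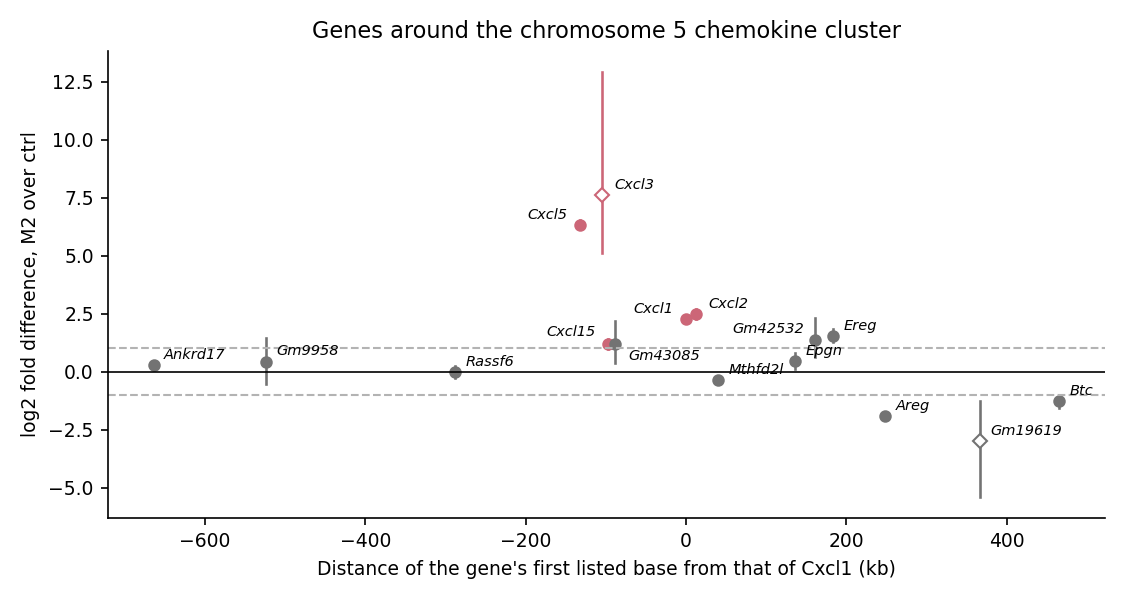
Log2 fold difference, M2 over ctrl, of the 16 genes tested from 500 kb before to 500 kb after the ELR chemokines on chromosome 5, against the distance of the first listed base from that of Cxcl1 in kb, with ELR chemokines in red, other genes in grey, 95% counting intervals as bars and open diamonds for genes with 3 reads or fewer in 1 library. The 5 ELR chemokines and Gm43085 lie above the upper dashed line of a 2-fold difference, as do Ereg and Gm42532 outside the cluster. The genes outside the cluster lie on both sides of 0.

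Promoter sequences were compared because NF-kB is a known regulator of ELR chemokines. RefSeq windows (GRCm38.p6, 250 bases before to 50 bases after the start of a gene) were at hand for 6 of the 9 members, Cxcl1, Cxcl2, Cxcl3, Cxcl15, Cxcl12 and Cxcl14, and none was used for Cxcl5, Cxcl16 and Cxcl17. The windows were searched on both strands for GGANNTTCC, letters found in many NF-kB sites, which occurred in 4.26% of 32851 promoters. The 150 bases before the RefSeq start are given for the 4 ELR chemokines with a window, all on the plus strand, with the matching letters in capitals: Cxcl1 at chr5:90891095-90891244, Cxcl2 at chr5:90903749-90903898, Cxcl3 at chr5:90785951-90786100 and Cxcl15 at chr5:90794384-90794533.
Cxcl1: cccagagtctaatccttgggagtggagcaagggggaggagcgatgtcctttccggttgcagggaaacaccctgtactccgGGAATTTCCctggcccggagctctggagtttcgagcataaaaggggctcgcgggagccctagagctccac
Cxcl2: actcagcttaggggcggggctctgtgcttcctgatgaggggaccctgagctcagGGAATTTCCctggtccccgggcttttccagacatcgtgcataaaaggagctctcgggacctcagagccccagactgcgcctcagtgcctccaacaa
Cxcl3: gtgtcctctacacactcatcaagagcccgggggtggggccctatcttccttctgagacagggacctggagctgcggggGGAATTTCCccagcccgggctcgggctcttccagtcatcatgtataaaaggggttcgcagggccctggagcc
Cxcl15: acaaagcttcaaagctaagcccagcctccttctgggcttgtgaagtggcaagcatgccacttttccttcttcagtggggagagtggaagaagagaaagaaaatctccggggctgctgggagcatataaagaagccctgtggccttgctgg
The same 9 letters, GGAATTTCC, began at -70 of Cxcl1, at -96 of Cxcl2 and at -72 of Cxcl3, counted from the RefSeq start. That start lies inside the gene as listed in the table by 4 bases for Cxcl1 and by 28 bases for Cxcl2, so the last bases printed for them are within the listed genes, and from the listed start of Cxcl2 the match began at -68. The windows of Cxcl15, Cxcl12 and Cxcl14 held no match to these letters. Whether a match goes with the size of a difference was not tested.

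Other motifs were found in a few members or in none. On both strands, TGANTCA, the letters of AP-1 sites, occurred in 7.81% of all windows and in none of the 6 members, TTNCNNAA, a loose form of C/EBP sites, occurred in 40.7% and in Cxcl2 at -236, and TTCNNNGAA, the letters of STAT sites, occurred in 8.30% and in Cxcl14 at -191. TATAAA, searched on the strand of the gene, occurred in 8.32% of windows and in Cxcl3 at -30 and Cxcl15 at -27. A match says only that the letters are there, and binding was not measured.

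The mRNAs of ELR chemokines are known to be short-lived through ATTTA elements in their 3' untranslated regions, to which decay factors such as Zfp36 bind. These elements were counted in the coding transcripts after the data had been seen. Cxcl2 held 11 (15.0 per kb), Cxcl1 held 7 (11.8 per kb), Cxcl3 held 5 (7.75 per kb) and Cxcl5 held 5 (4.50 per kb), against a median of 1.30 per kb over 19112 genes. These densities lay at percentiles 99.7, 99.5, 97.7 and 89.6 of all genes. Cxcl15 held 2 (1.26 per kb), Cxcl16 held 2 (1.41 per kb) and Cxcl12 held 4 (0.771 per kb), while Cxcl14 and Cxcl17 held none.

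Among 10 regulators of mRNA stability, 1 was higher, 1 lower and 8 not called, with a median log2 fold difference of 0.0086. These counts are near the shares over all genes, 8.16% higher and 6.55% lower. Zc3h12a, a nuclease that degrades inflammatory mRNAs, was higher with 380 reads in ctrl and 5357 in M2. Zfp36, the decay factor named above, was lower with 16616 reads in ctrl and 6272 in M2 (log2 fold difference -1.48, interval -1.52 to -1.43). With the assumed coefficient of 0.4, Zfp36 lost its call and Zc3h12a kept it. Zfp36l1, which had the most reads of the list, was not called (35099 in ctrl and 32385 in M2, log2 fold difference -0.19). Zfp36l2 was not called either (5447 and 7461 reads, 0.38). The decay of ELR chemokine mRNAs was not measured.

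Cxcr2 and Cxcr1, named above as receptors of most ELR chemokines, were not detectable at this depth. Cxcr2 had 1 read in M2 and 0 in ctrl, and Cxcr1 had 0 in both. Of 8 CXC receptors 4 were tested, of which 1 was higher, 1 lower and 2 not called, beside 8.16% higher and 6.55% lower over all genes. Of the receptors of Cxcl12, Cxcr4 had 1041 reads in ctrl and 719 in M2 (log2 fold difference -0.60, not called), and Ackr3, a receptor that removes Cxcl12, was higher with 161 reads in ctrl and 361 in M2 (1.09). Cxcr6, the receptor of Cxcl16, had 15 and 12 reads (not called), and Cxcr5 was lower with 30 and 5 reads. Ackr3 and Cxcr5 lost their calls with the assumed coefficient of 0.4.

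Fewer of the other chemokines could be tested. Their counts of genes called stand beside 8.16% higher and 6.55% lower over all genes. Of 6 CXC ligands outside the group, 4 were tested, of which 3 were higher and 1 lower: the interferon-induced Cxcl10 (36 reads in ctrl and 130 in M2), Cxcl9 (6 and 20) and Cxcl11 (0 and 11) were higher, and Cxcl13, a B cell chemokine, was lower (42 and 1). Of 23 CC, XC and CX3C ligands, 11 were tested, of which 4 were higher, none lower and 7 not called. Ccl20, which attracts cells with Ccr6, had 7 reads in ctrl and 109 in M2, Ccl2, a monocyte chemokine, 11 and 119, and Ccl28, a mucosal chemokine, 27 and 74. Cx3cl1 was the most abundant of them with 10008 reads in ctrl and 9890 in M2 (log2 fold difference -0.09, not called). With the assumed coefficient of 0.4, Cxcl9, Cxcl10, Cxcl11 and Ccl28 lost their calls, while Cxcl13, Ccl20 and Ccl2 kept theirs.

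Most genes in a list of other factors linked to neutrophils and defence were higher in the same library as the ELR chemokines. Like the other lists, it was chosen with earlier results of these data known. Of 12 such genes 10 were tested, of which 9 were higher, beside 8.16% of all genes, none lower and 1 (Lta4h) not called. With the assumed coefficient of 0.4, 7 were higher, beside 0.910% of all genes. The median log2 fold difference was 4.28, or 3.02 with genes of 3 or fewer reads set at their bound. Csf3, the growth factor of neutrophils, had 25 reads in ctrl and 736 in M2 (4.76), C3, the central complement protein, 666 and 24213 (5.11), and Lcn2, an iron-binding defence protein, 12343 and 76343 (2.56). Saa3 had 3 and 843 reads, Il23a 27 and 439, Csf2 2 and 54, and Il1f9 5 and 53. S100a8 and S100a9, the subunits of calprotectin, were also higher, with 1 read each in ctrl and 44 and 47 reads in M2.

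Of 14 tested inducers of ELR chemokines and their receptors, 5 were higher, none lower and 9 not called, with a median log2 fold difference of 0.27. For this list and those of NF-kB factors and proteases, the shares over all genes were 8.16% higher and 6.55% lower. Il1a had 9 reads in ctrl and 920 in M2 (log2 fold difference 6.46), Tnf 133 and 1032 (2.88), Tnfrsf1b, a TNF receptor, 19 and 468 (4.48), and Cd14 and Lbp, which present bacterial lipopolysaccharide, 803 and 9114 (3.43) and 88 and 1781 (4.25). Not called were Tnfrsf1a (-0.27), Il1r1 (-0.20), Myd88 (-0.23), Tlr4 (-0.51), Il17rc (-0.57), Il17re (-0.61), Il17ra (0.0016), Traf3ip2 (0.54) and Tlr2 (0.81). Il1b, with 2 reads in ctrl and 4 in M2, had too few to be tested. With the assumed coefficient of 0.4, Tnf lost its call, while Il1a, Tnfrsf1b, Cd14 and Lbp kept theirs. Of 13 NF-kB and C/EBP factors, 4 were higher, none lower and 9 not called, with a median of 0.87. Those higher were the NF-kB feedback and cofactor genes Tnfaip3 (2.48), Nfkbie (1.47), Nfkbiz (1.35) and Bcl3 (1.33), while Nfkbia (0.88), Nfkb1 (0.30) and Cebpb (0.12) were not called. Tnfaip3, Nfkbie, Nfkbiz and Bcl3 all lost their calls with the assumed coefficient of 0.4. Of 10 proteases that trim or shed chemokines, 8 were tested, of which 3 were higher, 1 lower and 4 not called, with a median of 0.33. Adam10 and Adam17, which shed Cxcl16, had log2 fold differences of 0.15 and 0.51, Mmp9 was higher (1.67), as were Mmp12 (5 and 134 reads) and Mmp8 (0 and 17), and Mmp2 was lower (-1.56). With the coefficient of 0.4, Mmp12 kept its call, while Mmp9, Mmp8 and Mmp2 lost theirs.

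**Figure D5:**
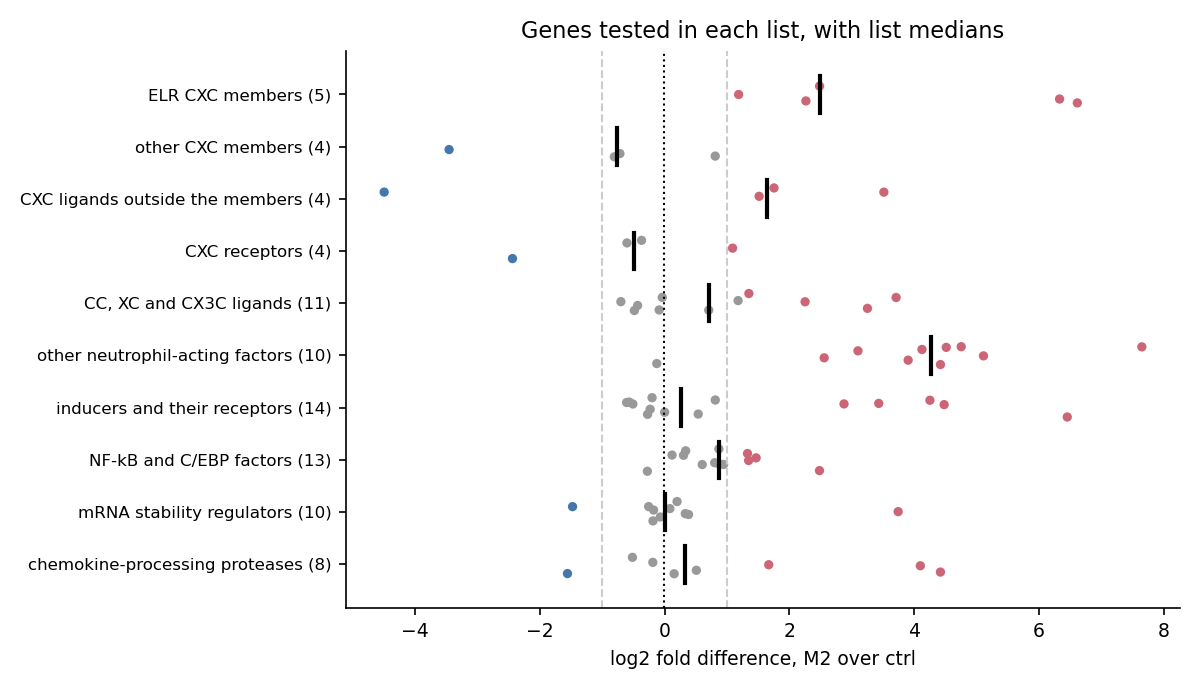
Log2 fold difference, M2 over ctrl, of each tested gene in the lists (number tested in brackets), with a pseudocount of 1, red where called higher, blue where called lower and grey where not called, black bars at the list medians, dashed lines at a 2-fold difference and a dotted line at the median of all genes. All 5 ELR chemokines and 9 of 10 genes in the list labelled other neutrophil-acting factors are called higher. Each of the other lists drawn holds genes on both sides of 0 (marker lists are not drawn).

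Markers of other cell types were read beside these results. The counts called in each marker list stand beside 8.16% higher and 6.55% lower over all genes. The basal list had 9352 CPM in ctrl and 9614 in M2, with 1 of 10 markers lower (Oxtr, 8324 and 1920 reads) and none higher. Krt14 and Krt5, the keratins of basal cells, were abundant in both libraries. The luminal list had 3512 and 2574 CPM, with 1 of 12 markers higher (Prom1), 5 not called and 6 lower. Those lower, in the same direction as Cxcl14, were Kit, Elf5, Esr1, Pgr, Prlr and Foxa1. Those not called had log2 fold differences of 0.21 (Krt8), -0.05 (Krt18), -0.78 (Krt19), -0.11 (Gata3) and -0.08 (Cldn3). Krt8 had the most reads of the list, 29888 in ctrl and 36348 in M2. Fibroblast markers had 346 CPM in ctrl and 140 in M2, the lower sum having the same direction as Cxcl12 and Cxcl14. Of 8 tested, 3 were lower (Col1a2, Col3a1 and Pdgfrb), 1 higher (Dcn) and 4 not called. Those not called were Pdgfra (log2 fold difference 0.37), Thy1 (-0.09), Col1a1 (-0.98) and Lum (10 reads in ctrl and 3 in M2). With the assumed coefficient of 0.4, no basal, luminal or fibroblast marker was called. The part of luminal cells or fibroblasts in the levels of Cxcl12 and Cxcl14 was not tested.

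Macrophage markers had 66.5 CPM in ctrl and 82.8 CPM in M2, with 5 of 15 at 0 reads in both libraries, among them Adgre1, Ptprc and Tyrobp, and of 6 tested 2 were higher and 4 not called. Those higher were Cd163, a scavenger receptor, with 2 reads in ctrl and 30 in M2, and Aif1 with 3 and 40, while Arg1, which had the most reads (1507 and 2090), Cd68 (170 and 165), Csf1r (94 and 92) and Itgam (3 and 9) were not called. Among those with too few reads to be tested were Lyz2 with 3 and 1 reads and Mrc1 with 1 and 5. Of 14 neutrophil markers, 7 were at 0 in both libraries, among them Ly6g, Mpo and Csf3r, and 4 of 5 tested were higher. Their sum was 10.4 CPM in ctrl and 74.6 CPM in M2, nearly all from Ltf (271 and 2133 reads). Ltf was thus present also in ctrl, where Ly6g, Mpo and Csf3r had 0 reads. The sum is therefore not given as a measure of neutrophils. The other neutrophil markers called higher were Cd177 (1 and 19 reads), Mmp8 (0 and 17) and Camp (3 and 14). Endothelial markers had 2.38 and 3.16 CPM, with 1 higher (Pecam1, 33 and 76 reads), 2 lower and 1 not called of 4 tested. No macrophage, neutrophil or endothelial marker was called with the assumed coefficient of 0.4. Beyond these counts, the part of macrophages or neutrophils in the levels of the ELR chemokines was not tested.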

How the data were processed

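Total RNA of cultured colonies and organoids was sequenced from 1 library each of ctrl and M2, grouped by the sample labels. Per the labels, RNA was purified on columns and a SMARTER kit for mRNA was used for the libraries, whereas the study's methods name the reagent RNAiso Plus. The authors deposited raw read counts per gene, without normalization. The submitters' processing notes name GRCm38 (mm10). The aligner, counter, annotation and use of strand are not given in the sources used here.

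Genes with at least 10 reads over both libraries were tested (19233 of 49492) with a two-sided exact binomial test in scipy 1.17.1 (Python 3.11.15), after TMM scaling in edgeR 4.0.16 (R 4.3.3), with Benjamini-Hochberg adjustment over all genes tested. The log2 fold difference is that of reads plus 1 over the effective library size. Intervals are exact binomial (Clopper-Pearson, 95%) for ratios and shares of reads, or exact Poisson intervals for RPKM, which was computed here from the deposited counts and lengths. No dispersion could be estimated, and exactTest of edgeR was run with assumed coefficients of variation of 0.1, 0.2 and 0.4. Alternatives changed the scaling, the pseudocount, the filter, the fold threshold and the test. The binomial test was tried on counts simulated with counting error only. This trial does not bear on variation between cultures. With no molecular identifiers stated, a count of 0 allows up to 3 reads.

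The members and the 16 gene lists were chosen with earlier results of these data known. The text names all members, of each list those called with at least 50 reads in 1 library and up to 6 of those with the most reads (the remaining ones are covered by counts), every gene with at least 10 reads within 500 kb of the chromosome 5 cluster, and genes at 0. Genes named with fewer reads were chosen after their values were seen.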

Additional observations from a re-analysis of the deposited data

How the results depend on the processing

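No member changed direction under the 12 alternatives. Cxcl5, Cxcl14, Cxcl12, Cxcl16 and Cxcl17 kept their call or lack of one in all 12, as did Cxcl3 in the 11 under which it was tested (it had under 1 CPM in ctrl). Cxcl1 and Cxcl2 lost their call in 1 alternative, the assumed coefficient of variation of 0.4, under which 2 members were higher, and Cxcl15 lost it in 3 (coefficients of 0.2 and 0.4, 4-fold threshold). The log2 fold difference of the ELR sum, 2.77, was 2.71 with library totals, 2.70 with totals without mitochondrial genes, 4.81 without Cxcl1 and 2.26 without Cxcl5, the last chosen after the data had been seen. Over all genes, 1570 higher and 1260 lower became 616 and 494 at a 4-fold threshold, 806 and 579 among genes with at least 1 CPM in both libraries, 964 and 691 at a coefficient of 0.2, and 175 and 130 at 0.4.

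With 1 library per group, no difference has a replicate check. Depth limits Cxcl3, with 1 read in ctrl, and Cxcl17, with 71 and 45 reads. The values for Cxcl2 and Cxcl3 depend on how reads shared between them were counted, and those for Cxcl16 and Cxcl17 on the use of strand.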
